A study of Mus musculus with 8 samples.

Results

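The miR-30 family is described here by 10 named arms on a mouse miRNA array: the 5p arms mmu-miR-30a-5p, mmu-miR-30b-5p, mmu-miR-30c-5p, mmu-miR-30d-5p and mmu-miR-30e-5p and the 3p arms mmu-miR-30a-3p, mmu-miR-30c-1-3p, mmu-miR-30c-2-3p, mmu-miR-30d-3p and mmu-miR-30e-3p. The species prefix is left out below. The rule takes them by name, not by a threshold on their values, among the 1881 mouse miRNAs that the array carries. The levels come from kidney samples of male mice, 4 samples of Akita mice (strain C57BL/6-Ins2Akita/J) and 4 of control mice (strain C57BL/6J), with 1 array for each sample. Akita mice carry 1 mutant allele of Ins2, an insulin gene, whose misfolded product damages pancreatic beta cells and causes diabetes early in life. Age is labelled 36 in both groups with no unit. The control samples carry Mock in their titles, and no treatment of either group is given in the sources used here. No label says that every sample came from a separate mouse, so a p-value rests on the spread among these samples, which may be technical. The question put by the design is how miRNA levels in the Akita kidney differ from those of age-matched controls.

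A microRNA hairpin is cut into a 5p and a 3p arm, and the arm that is loaded into Argonaute guides the repression of messenger RNAs that pair with its seed, the bases 2 to 8. In the miR-30 family the 5p arm is the usual guide and shares its seed across the members, while the 3p arm is the usual passenger strand. The family is abundant in glomerular podocytes and in tubular epithelium. In podocytes it is known to restrain Notch1, p53 and calcineurin signalling, and TGF-beta lowers it in cultured podocytes. Arrays of whole kidney do not separate these cells, and fewer cells of a type cannot be told apart from less RNA per cell.

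The mature sequences show which arms can share targets and which the array has to separate by few bases. For 7 of the 10 members a sequence was found in the RefSeq table of build GRCm38.p6, and they are printed 5′ to 3′ with the seed in capitals.
miR-30a-5p: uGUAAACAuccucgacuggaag
miR-30c-5p: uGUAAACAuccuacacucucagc
miR-30e-5p: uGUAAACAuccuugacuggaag
miR-30a-3p: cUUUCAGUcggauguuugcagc
miR-30e-3p: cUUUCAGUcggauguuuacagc
miR-30c-1-3p: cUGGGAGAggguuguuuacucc
miR-30c-2-3p: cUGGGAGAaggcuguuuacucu
The 3 guides carry 1 seed, and the 4 passengers fall into 2 seed groups, one with miR-30a-3p and miR-30e-3p and the other with both miR-30c passengers. MiR-30a-5p and miR-30e-5p differ by 1 base, as do miR-30a-3p and miR-30e-3p, and the miR-30c passengers differ from each other by 3 bases.

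The members come from neighbouring hairpins. Mir30a lies at chr1:23272269-23272339 on the plus strand and Mir30c-2 at chr1:23291701-23291784 on the same strand, 19361 bases further on. Neither was found within another gene span of the RefSeq table, in a search that left out symbols starting with Mir. Mir30e lies at chr4:120772606-120772697 and Mir30c-1 at chr4:120769534-120769622, both on the minus strand, 2983 bases apart and inside the span of Nfyc, which encodes a subunit of the transcription factor NF-Y. The table does not give exons or introns. The 2 hairpins of miR-30c make the same 5p arm, so a signal of miR-30c-5p cannot be divided between chromosomes 1 and 4, whereas each miR-30c passenger belongs to 1 locus. MiR-30b and miR-30d form another pair on chromosome 15, per the array annotation, where their probe positions are 3784 bases apart.

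Because these arms are so alike, the probes matter. The longest probe of each closely matched pair, 5′ to 3′ with the bases that differ within the pair in capitals, read as follows in the deposited files.
miR-30a-5p probe: cttccagtcGaggatgt
miR-30e-5p probe: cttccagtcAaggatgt
miR-30a-3p probe: gctgCaaacatccgact
miR-30e-3p probe: gctgTaaacatccgactg
miR-30c-1-3p probe: GgagtaaacaAccCtctcc
miR-30c-2-3p probe: AgagtaaacaGccTtctcc
All 17 probes of the members with a RefSeq sequence were complementary to the 3′ end of their own miRNA. The longest probe of miR-30d-5p differed from that of miR-30a-5p at 1 of 14 compared bases. Cross-hybridisation between such neighbours was not tested, and the near-identical members may not be independent measurements of one another.

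The scanner gave 1 brightness value per spot, and there is no read depth. Every array was divided by its own 75th percentile over the probes that were bright on all 8 arrays (well above background in the scanner's own flag), probe values were then summed for each miRNA, and the result is called the scaled signal. Before scaling, that percentile was 368.8 to 446.2 on the Akita arrays and 495.4 to 520 on the control arrays, and 274 to 298 miRNAs were above background in Akita kidneys and 295 to 327 in control kidneys. All arrays lay on 1 slide, with Akita in 1 row and control in the other, so row and genotype cannot be told apart. Probes differ in how strongly they bind, so signals of different miRNAs are not set against each other as levels. Of the 1881 miRNAs, 285 were above background throughout the Akita arrays, the control arrays or both, and these were tested with limma. An adjusted p of 0.05 was passed by 42 of them (14.7%), 24 higher in Akita kidneys (8.42%) and 18 lower (6.32%).

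The miR-30 family was measured in all 8 kidneys, and the differences between Akita and control kidneys were small. Of the 10 members, 9 cleared background on every array and were tested, and 0 of them passed the limma test at an adjusted p of 0.05, beside 14.7% of all tested miRNAs (8.42% higher and 6.32% lower). At an unadjusted p under 0.05 there were 5 of the 9, beside 34% of all tested miRNAs. Of these 5, 4 were higher in Akita kidneys, beside 22.5% of all tested miRNAs, and 1 was lower, beside 11.6%. On the scaled signal 8 of the 9 had a positive log2 fold change (Akita minus control), beside 58.6% of all tested miRNAs, but 0 of the 9 were positive on unscaled signals or with the labelling spike-ins as the standard. The median log2 fold change was 0.12 over the 9 members and 0.06 over all tested miRNAs.

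MiR-30a-5p, a guide made from the chromosome 1 locus, had scaled signals of 12038, 10589, 11525 and 11617 in the 4 Akita kidneys, against 9911, 10846, 9997 and 10299 in the 4 control kidneys. Akita replicates 1, 3 and 4 lay above every control value, and Akita replicate 2 lay below control replicate 2. On the log2 scale it averaged 13.48 ± 0.08 in Akita kidneys and 13.32 ± 0.06 in control kidneys (SD, n = 4 each). The log2 fold change was 0.16 ± 0.07 (SE), with a 95% interval of 0.00 to 0.31 and a limma adjusted p of 0.141.

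MiR-30d-5p, a guide of the chromosome 15 locus, was the only tested member whose groups did not overlap, 1 of 9 beside 22.8% of all tested miRNAs. Its scaled signals were 1341, 1196, 1318 and 1236 in Akita kidneys, against 1086, 1190, 1115 and 1141 in control kidneys. The lowest Akita value, replicate 2, and the highest control value, replicate 2, were close to each other, at 1196 and 1190. The log2 fold change was 0.17 ± 0.07 (SE, n = 4 per group) and did not pass, with a limma adjusted p of 0.122. Both bright probes of miR-30d-5p had groups without overlap, at 0.16 and 0.17.

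MiR-30b-5p, the other guide of the chromosome 15 locus, had scaled signals of 3186, 2859, 3054 and 2878 in Akita kidneys, against 2774, 3156, 2865 and 2938 in control kidneys. The groups lay over each other, and it had the smallest log2 fold change of the tested members on this scale, 0.03 with a 95% interval of -0.13 to 0.19 (limma adjusted p = 0.802). Its sign depended on single choices, since the value was -0.00043 without Akita replicate 1 and -0.0038 in the authors' deposited table.

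MiR-30c-5p, the guide that both chromosome 1 and chromosome 4 encode, had 8392, 7211, 8018 and 8536 in Akita kidneys, against 6991, 7742, 7297 and 7422 in control kidneys. Akita replicates 1, 3 and 4 were above all control values, and replicate 2 lay among them. The log2 fold change of 0.12 had a 95% interval of -0.04 to 0.29 and a limma adjusted p of 0.272. MiR-30e-5p, the guide made within Nfyc, had 4473, 3994, 4204 and 4560 in Akita kidneys, against 3819, 4264, 3834 and 4074 in control kidneys. Its groups overlapped as well, and its log2 fold change was 0.11 (-0.06 to 0.27, limma adjusted p = 0.313).

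**Figure D1:**
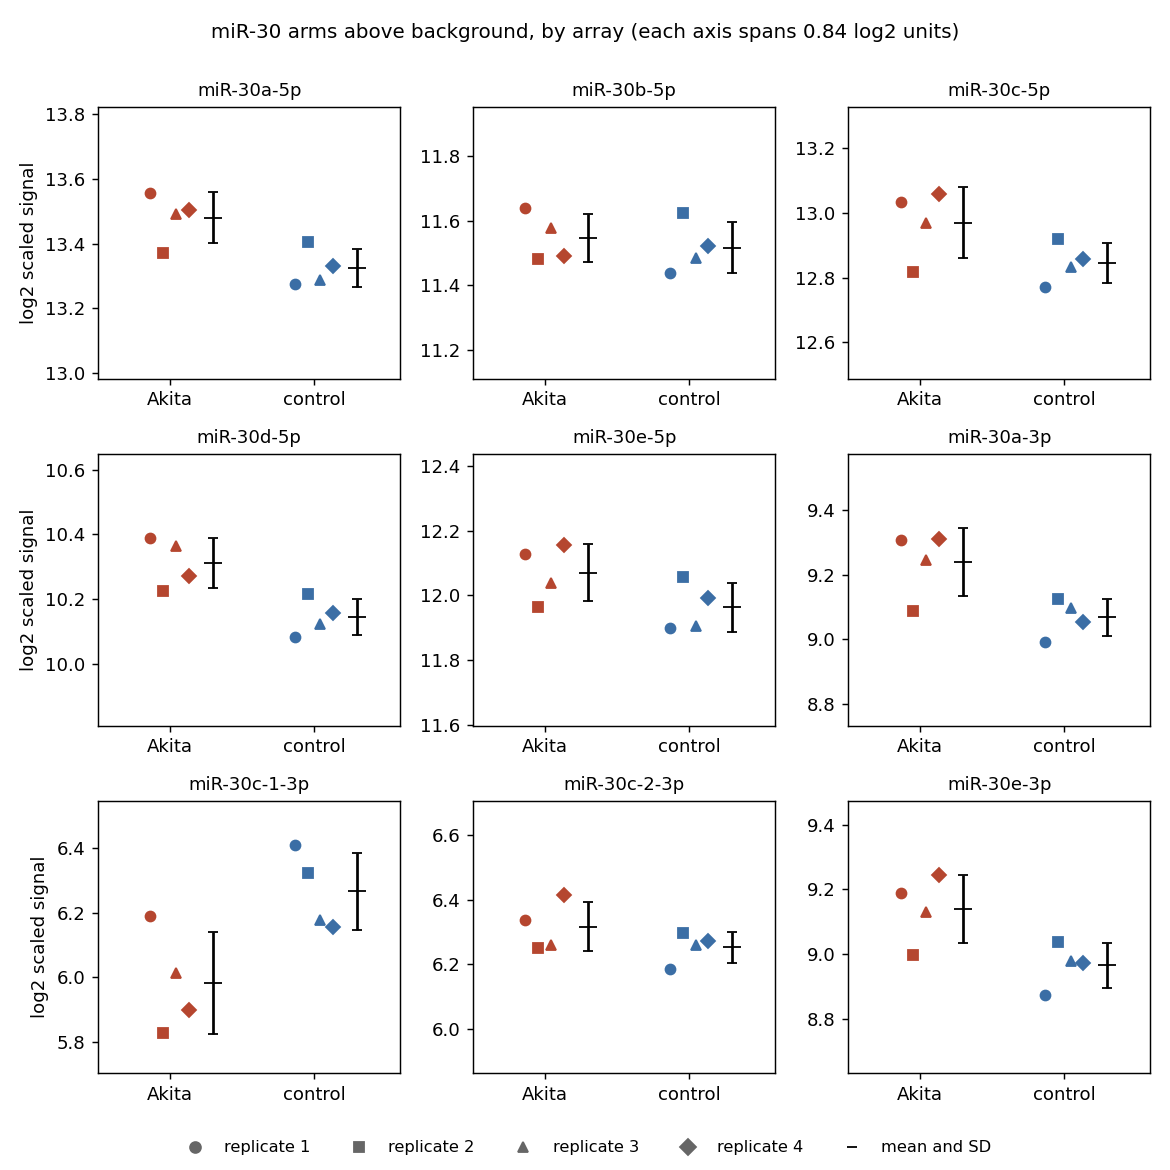
Log2 scaled signal of the 9 tested miR-30 arms, 1 panel per arm, with a point for each array, Akita left of control, and the mean and SD of 4 arrays beside them; every axis spans the same number of log2 units. MiR-30d-5p has groups that do not touch, miR-30c-1-3p is the arm with a lower Akita mean, and the lowest Akita point is replicate 2 in all 9 panels.

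Among the 4 tested passengers 0 passed, and on the scaled signal 3 had a positive log2 fold change and miR-30c-1-3p a negative one, while without scaling all 4 were negative. MiR-30a-3p had scaled signals of 633.8, 543.6, 606.3 and 635.2 in Akita kidneys, against 509.3, 558.6, 547.6 and 531.6 in control kidneys. Akita replicates 1, 3 and 4 were above every control value. The log2 fold change was 0.17 (0.00 to 0.34), with a limma adjusted p of 0.14. MiR-30e-3p had 583.8, 510.8, 560.1 and 605.8 in Akita kidneys, against 468.4, 525.8, 504 and 502.5 in control kidneys. The same 3 Akita replicates stood above the controls. The log2 fold change was 0.17 (0.01 to 0.34), with a limma adjusted p of 0.14.

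MiR-30c-1-3p, the passenger of the hairpin within Nfyc, had scaled signals of 73, 56.9, 64.6 and 59.7 in Akita kidneys, against 84.9, 80, 72.4 and 71.3 in control kidneys. Akita replicate 1 lay above control replicates 3 and 4, and the other 3 Akita values were below all controls. It averaged 5.98 ± 0.16 in Akita kidneys and 6.27 ± 0.12 in control kidneys (SD, n = 4 each, log2). The log2 fold change was -0.28 ± 0.10 (SE; -0.50 to -0.06), which is 0.822-fold, and it did not pass, with a limma adjusted p of 0.0793. MiR-30c-2-3p, the passenger of the chromosome 1 hairpin that shares its seed, had 80.9, 76.2, 76.6 and 85.2 in Akita kidneys, against 72.7, 78.6, 76.6 and 77.2 in control kidneys. The groups overlapped, at a log2 fold change of 0.06 (-0.09 to 0.21, limma adjusted p = 0.522).

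Fewer of the probes behind miR-30c-1-3p cleared background than of the other tested members. Of the 21 probes of the 9 tested members, 18 were above background on all 8 arrays, and 17 of these 18 had a higher Akita mean on the scaled signal. Probes of the same arm are not separate measurements, so this count largely repeats the 8 of 9 positive members, beside 58.6% of all tested miRNAs. The exception among the 18 probes was the 19-base probe of miR-30c-1-3p, the only one of its 4 that was above background on all arrays. Alone it gave 48.6, 43.2, 35.8 and 34.5 in Akita kidneys, against 51.7, 46.5, 38.8 and 47.2 in control kidneys, groups that overlapped, with a log2 difference of -0.19. The 16-, 17- and 18-base probes of miR-30c-1-3p were above background on 0 arrays, yet they entered its summed signal. Their Akita means were 5.1, 5.8 and 12.1, against control means of 8.3, 9.9 and 12.9. For the 19-base probe the means were 40.5 and 46.1. Much of the difference of miR-30c-1-3p therefore came from probes that cleared background on no array. Under normexp background correction the log2 fold change of miR-30c-1-3p was 0.11, and that of miR-30c-2-3p was 0.16. That correction used an offset of 50, of the size of the brightest of these probes. It therefore cannot decide how so dim an arm changed.

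**Figure D2:**
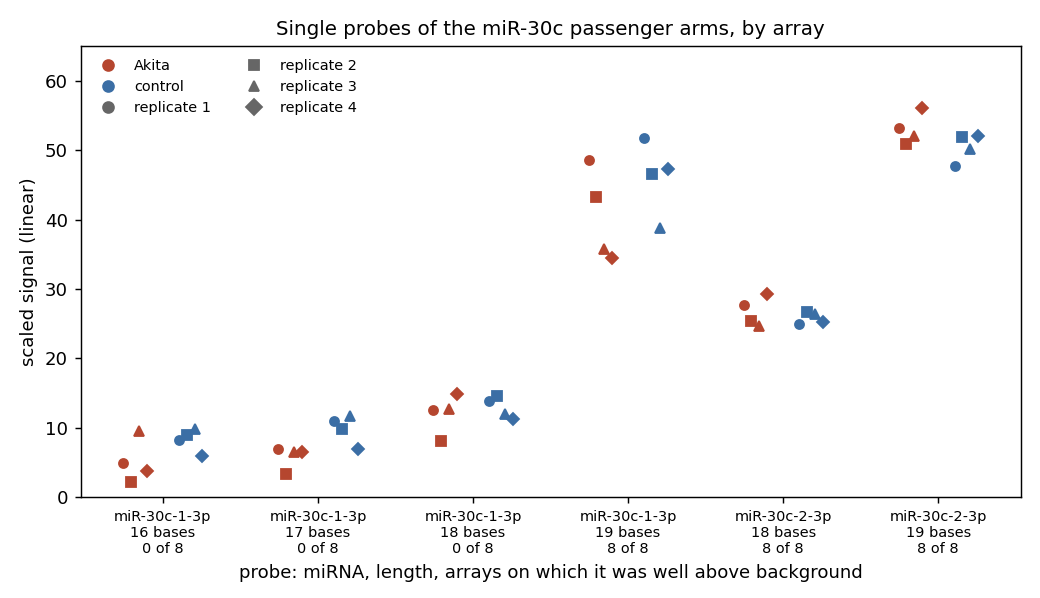
Scaled signal, on a linear axis, of each single probe of miR-30c-1-3p and miR-30c-2-3p, with a point for each array, Akita left of control. Of the 4 probes of miR-30c-1-3p only the 19-base probe was above background on all 8 arrays, and its groups overlap.

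MiR-30d-3p, the passenger of miR-30d, was not well above background on any of the 8 arrays and was not tested. Its scaled signals were 28.9, 31.5, 28.2 and 25.4 in Akita kidneys and 29.2, 30.3, 27.3 and 27.5 in control kidneys. Of the other arms that carry miR-30 in their names, miR-30b-3p and miR-30f were also not well above background on any of the 8 arrays.

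The size and even the sign of these small changes followed the way the arrays were put on 1 scale. Without scaling, the log2 fold changes of the 9 members ran from -0.55 (miR-30c-1-3p) to -0.10 (miR-30e-3p), with a median of -0.15 where all tested miRNAs had -0.21. With the labelling spike-ins as the standard the medians were -0.12 for the family and -0.18 for all tested miRNAs. The gap between the family and the median of all tested miRNAs does not depend on a factor per array, although each median does. The family therefore had to stand equally far above it under these settings and under the scaled signal, by 0.06 on the log2 scale. It stood 0.07 higher under quantile normalisation and 0.09 higher under cyclic loess. Under normexp background correction the family was not above that median, at 0.1259 for the 9 members and 0.1295 for all tested miRNAs. Its offset of 50 weighs most on dim miRNAs, and the part of the offset in these medians was not tested. On the scaled signal 6 of the 9 members were above the median miRNA, and 8 were under quantile normalisation and 7 under cyclic loess. On the scaled signal, miR-30c-2-3p lay at the median, and miR-30b-5p was 0.03 and miR-30c-1-3p 0.35 below it. Some calls came and went with the scale, for the family as for all miRNAs. Of all 285 tested miRNAs, 60 passed under quantile normalisation, 70 under cyclic loess, 109 without scaling and 116 with the spike-ins. Quantile normalisation passed miR-30a-5p (0.17, limma adjusted p = 0.0447), miR-30d-5p (0.15, adjusted p = 0.0343) and miR-30c-1-3p (-0.30, adjusted p = 0.0417). Cyclic loess passed miR-30e-3p (0.13, limma adjusted p = 0.0394) and miR-30c-1-3p (-0.36, adjusted p = 0.0216). Without scaling, miR-30c-1-3p (-0.55, limma adjusted p = 0.00714) and miR-30c-2-3p (-0.21, adjusted p = 0.0325) passed as lower. The same arms passed with the spike-ins (-0.53, limma adjusted p = 0.00676, and -0.18, adjusted p = 0.0213).

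**Figure D3:**
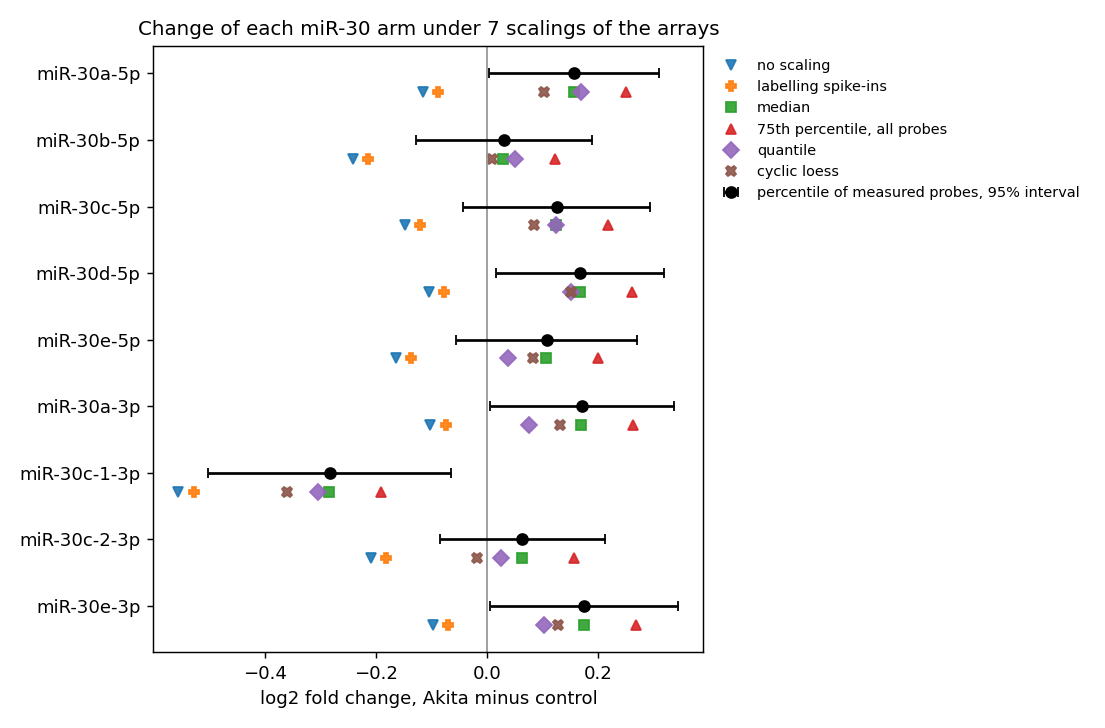
Log2 fold change (Akita minus control) of the 9 tested miR-30 arms on the scaled signal, with its 95% interval, and the same value under 6 other scalings as separate marks. The 9 arms are negative on unscaled signals and when the spike-ins set the scale, and miR-30c-1-3p is negative under each of these scalings.

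A difference between arms of the same array is free of the array's scaling factor. Arms that come from 1 hairpin were therefore compared as log2 5p minus log2 3p on each array, in a limma fit over 29 such pairs. Of these pairs 5 (17.2%) passed, and 11 (37.9%) had an unadjusted p under 0.05. For miR-30a the difference was 4.24 ± 0.04 in Akita kidneys and 4.26 ± 0.04 in control kidneys (SD, n = 4 each), a change of -0.01 with a 95% interval of -0.10 to 0.07 (limma adjusted p = 0.789). For miR-30e it was 2.93 ± 0.03 in Akita kidneys and 3.00 ± 0.05 in control kidneys, a change of -0.07 (-0.15 to 0.02, limma adjusted p = 0.215). For miR-30c-5p minus miR-30c-2-3p it was 6.65 ± 0.07 in Akita kidneys and 6.59 ± 0.02 in control kidneys, a change of 0.06 (-0.03 to 0.16, limma adjusted p = 0.286).

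Of the 4 arm differences in the family, 1 passed, that of miR-30c-5p minus miR-30c-1-3p, which was also the only one with an unadjusted p under 0.05. It was 6.85, 6.99, 6.95 and 7.16 in Akita kidneys, against 6.36, 6.60, 6.65 and 6.70 in control kidneys. Every Akita value lay above every control value, which held for 31% of the 29 pairs. The change was 0.41 ± 0.09 (SE; 0.20 to 0.61, limma adjusted p = 0.0163). It rests on the dim passenger. With the single bright probe of miR-30c-1-3p it was 0.32 and did not pass (limma adjusted p = 0.203). Under normexp, with its offset of 50, it was -0.02. The guide is also fed by the chromosome 1 hairpin, so this is a difference of a shared guide and the passenger of 1 of its loci.

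Members made from 1 locus were then set against each other in the same way, as 3 differences tested by exact permutation over the 70 assignments of arrays to groups. MiR-30d-5p rose relative to its neighbour miR-30b-5p. The log2 difference of miR-30d-5p minus miR-30b-5p was -1.25, -1.26, -1.21 and -1.22 in Akita kidneys, against -1.35, -1.41, -1.36 and -1.37 in control kidneys, so that the groups lay apart. It averaged -1.23 ± 0.02 in Akita kidneys and -1.37 ± 0.02 in control kidneys (SD, n = 4 each), a change of 0.14. By the exact permutation test, two-sided, p was 0.0286, the lowest value that 4 against 4 arrays allow, and 0.0429 after Benjamini-Hochberg adjustment over the 3 differences. Each of the 4 pairings of a single miR-30d-5p probe with a single miR-30b-5p probe also had groups without overlap, with changes of 0.13 to 0.15. The change was positive in the 24 alternative settings, from 0.10 to 0.14, but the adjusted p was above 0.05 in 6 of them. Its unadjusted exact permutation p was under 0.05 in 23 of the 24. The adjusted 0.0429 depends on another of the 3 differences, miR-30e-3p minus miR-30c-1-3p, also having the lowest possible p. With the brightest probe, where that was not so, the exact permutation p was still 0.0286 but 0.0857 after adjustment. Many of these settings could not move it, since an array factor cancels and both arms are bright. It stayed at 0.1373 without scaling, with the spike-ins, at the higher and the lower floor and with no filter. Other settings only left out an array, so the 24 are not separate checks.

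Of the 10 differences between 5p arms, 2 had groups that did not overlap. This is no larger a share than the 31% of the 29 pairs of 5p and 3p arms, or the 22.8% of all tested miRNAs. These were miR-30d-5p against miR-30b-5p and miR-30a-5p minus miR-30b-5p, whose change was 0.13, so miR-30b-5p was in both. They were looked at as a description, with no test.

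On chromosome 4, miR-30e-3p minus miR-30c-1-3p was 3.16 ± 0.14 in Akita kidneys and 2.70 ± 0.16 in control kidneys (SD, n = 4 each), a change of 0.46 with groups that did not overlap (exact permutation p = 0.0286, 0.0429 adjusted over 3). With the single bright probe of miR-30c-1-3p, 0 of 2 probe pairings had separate groups, and the changes were 0.36 and 0.37. The change did not pass in 7 of 24 alternative settings. Among them were normexp with its offset of 50 (0.05, adjusted exact permutation p = 0.6) and the mean of log2 probes (0.22, adjusted exact permutation p = 0.0857). The higher floor was another (0.17, adjusted exact permutation p = 0.0857). There miR-30c-1-3p lay at the floor on all arrays, with a change of 0, so the 0.17 is that of miR-30e-3p alone and checks nothing. On chromosome 1, miR-30a-3p minus miR-30c-2-3p was 2.92 ± 0.07 in Akita kidneys and 2.81 ± 0.02 in control kidneys, a change of 0.11 that did not pass, with overlapping groups (exact permutation p = 0.0571, also 0.0571 adjusted over 3).

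**Figure D4:**
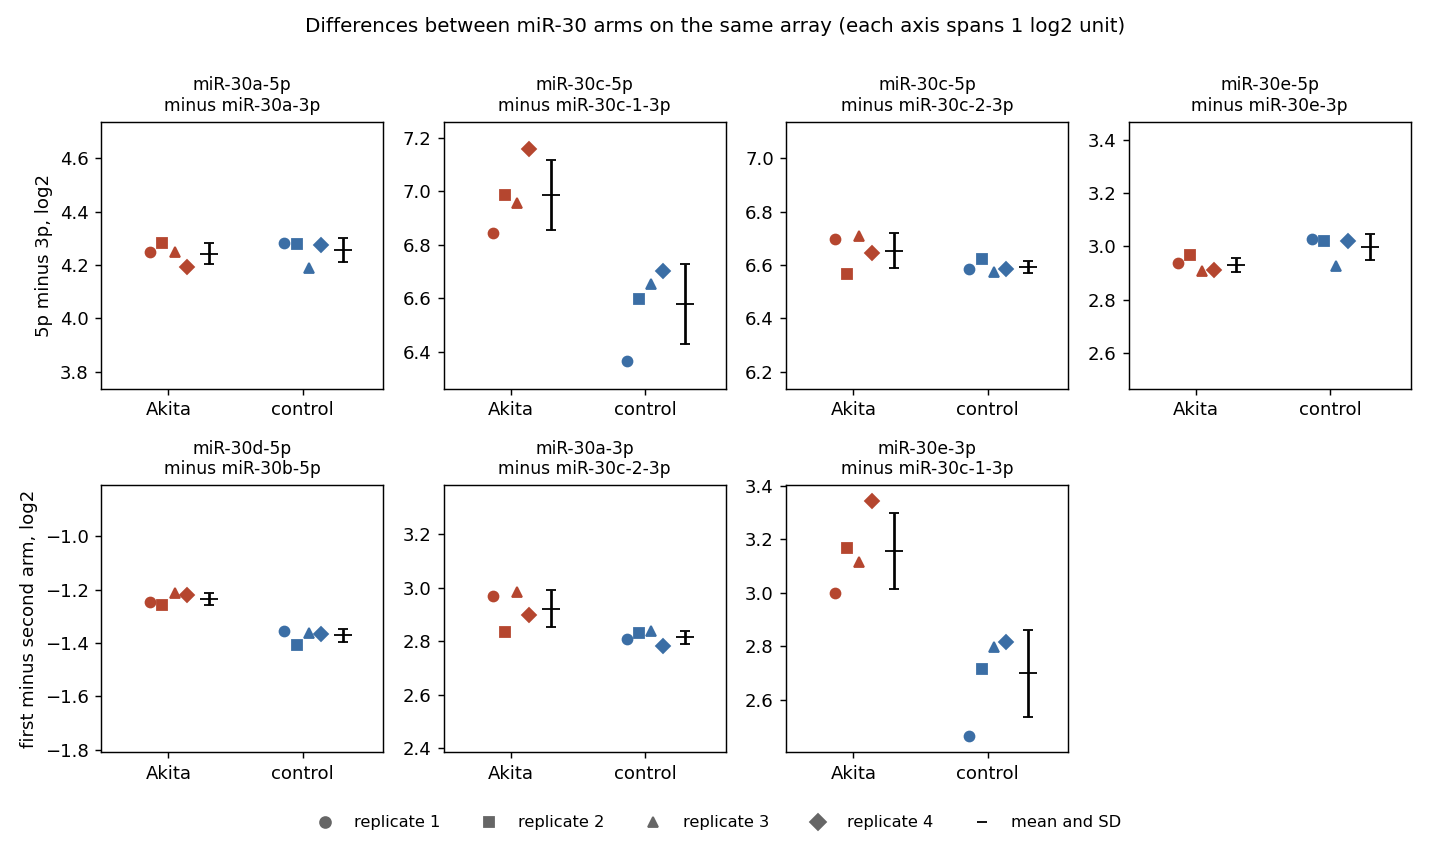
Differences in log2 signal between arms of the same array, 4 of the form 5p minus 3p and 3 between members of a locus, with a point for each array, Akita left of control, and the mean and SD of 4 arrays. The groups lie apart for miR-30d-5p minus miR-30b-5p, for miR-30e-3p minus miR-30c-1-3p and for miR-30c-5p minus miR-30c-1-3p, and overlap in the others.

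Within each group the 5 guides went up and down together from array to array. After the group means were taken off, the correlations between the 5p arms over the 8 arrays had a median of 0.861 and ran from 0.615 to 0.958. Over all 9 tested members, passengers included, the median was 0.694 and the range -0.0988 to 0.983, so not every arm followed the others. Akita replicate 2 was the lowest Akita array for 9 of the 9 tested members. Control replicate 1 was the lowest control array for 8 of them, and control replicate 2 the highest for 8. The mean deviation of the 5 guides was -0.11 on the log2 scale in Akita replicate 2, of about the size of the fold changes above. Each array has its own scaling factor, the same for all its miRNAs, and the part of these factors in the common deviations was not tested.

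The miRNAs whose deviations were most like the mean of the 5 guides, among 248 others above background on all 8 arrays, were miR-378b (Pearson r = 0.985), miR-22-3p (0.98), miR-29b-3p (0.977), miR-378d (0.974) and miR-200a-3p (0.968), over 8 arrays. Their own log2 fold changes were -0.01, 0.13, 0.19, -0.05 and -0.02, and 0 of these 5 passed (limma adjusted p = 0.129 to 0.941).

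Other miRNAs that TGF-beta is reported to lower in kidney cells, the miR-29 and miR-200 families with miR-192-5p and miR-204-5p, were listed beside the family, although the direction for miR-192 is disputed between studies. Of these 10, all tested, 2 passed as higher on the scaled signal, beside 8.42% of all tested miRNAs, and 0 passed as lower. These were miR-200c-3p (log2 fold change 0.28, limma adjusted p = 0.0324) and miR-141-3p (0.28, adjusted p = 0.0466), epithelial miRNAs that repress Zeb1 and Zeb2, and the median of the list was 0.07. Without scaling their log2 fold changes were 0.010 and 0.0069 and neither passed, and the list had 0 higher and 4 lower calls. With the spike-ins it had 0 higher and 5 lower. In either direction, 109 of all 285 tested miRNAs passed without scaling and 116 with the spike-ins. Of 7 miRNAs reported to rise with TGF-beta, 4 were tested and 0 passed, with a median of 0.13. The smallest p-values among them were those of miR-21a-5p (0.23, limma adjusted p = 0.0587), known for its part in kidney fibrosis, and miR-214-3p (0.18, adjusted p = 0.221). Of the 9 let-7 guides, listed as an abundant family of near-identical members, 9 were tested and 0 passed, with a median of 0.01. The smallest p-values were those of miR-98-5p (0.11, limma adjusted p = 0.382) and let-7d-5p (0.10, adjusted p = 0.42).

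The tissue label was checked against marker miRNAs. Of 7 kidney tubule miRNAs 6 were tested and 0 passed, with a median log2 fold change of -0.09, and 1 of the 7 was not above background. On unscaled signals 5 of these 6 passed as lower, as did 7 of the 9 let-7 guides. Of all 285 tested miRNAs, 109 passed there in either direction, and their median log2 fold change was -0.21. Of 7 markers of liver, striated muscle, neurons and islets, 4 were below background on all arrays, beside 81.4% of all miRNAs on the array. Of the other 3, miR-9-5p was above background on 8 arrays, miR-1a-3p on 6 and miR-122-5p on 5, so these markers do not set the samples apart from other organs. All 6 leukocyte miRNAs had a negative log2 fold change, and 5 passed as lower in Akita kidneys, beside 6.32% of all tested miRNAs. MiR-150-5p did not pass, with a log2 fold change of -0.35 and overlapping groups (limma adjusted p = 0.0896). The summed scaled signal of the 6 was 736.5 to 876.6 in Akita kidneys and 1075 to 1239 in control kidneys. The part of a changed cell mixture in the miR-30 values was not tested. No miRNA that marks podocytes alone was listed, so the podocyte share of the miR-30 signal was not measured.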

How the data were processed

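The authors deposited 1-colour Agilent scanner files with linear spot intensity, per the file headers extracted with Agilent Feature Extraction 12.0.3.1, and a table with a linear ratio per miRNA, relative to that miRNA's own centre. The sources used here do not say how its array factors were set. Column medians were 1.03 to 1.22 in Akita and 0.7 to 0.97 in control samples, and it served as an alternative. Per the labels' protocols, 100 ng of total RNA was labelled per sample.

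Control and outlier spots were left out and the rest averaged per probe. Arrays were divided by the 75th percentile over 451 of 4415 probes, those well above background on all 8 arrays. Probes were summed per miRNA, set to a floor of 23.8 and log2 transformed. Groups came from the sample titles. Limma 3.58.1 in R 4.3.3 was fitted over 285 miRNAs (6 residual and 9.16 total degrees of freedom) and over 29 arm pairs, two-sided, with Benjamini-Hochberg adjustment and a threshold of 0.05. Scripts were tested on simulated data. The number of arrays limits the precision.

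The members and lists were chosen with earlier results of these data known. The text names all 10 members, arms outside the rule that carry miR-30 in their names, the 5 miRNAs with the most similar array-to-array deviations, and the 2 tested members with the smallest p of each of 3 lists. Alternatives changed the scaling, background correction, probe summary, floor, filter and replicate block, left out single arrays or took the deposited table. One, probes above background on all 8 arrays only, was chosen after seeing the data.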

Additional observations from a re-analysis of the deposited data

Results flagged for a closer look

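An array that stood apart from the other 3 of its group was looked for in 32 sets of 4 values, and 2 were found. Both were arm differences in the control kidneys, and in both it was control replicate 3. MiR-30a-5p minus miR-30a-3p was 4.19 there, against 4.28 on each of the other control arrays, so that this gap took up 0.93 of the group's range. MiR-30e-5p minus miR-30e-3p was 2.93 there, against 3.02 to 3.03 on the others, and the gap took up 0.922 of the range. Chance gives such a flag in about 1 of 20 sets. The gaps were 0.09 log2 units, and neither arm difference passed the test between genotypes.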

How the results depend on the processing

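The 42 called miRNAs became 109 without scaling, 116 with spike-ins, 14 with the percentile over all probes, 70 with cyclic loess, 89 with normexp, 9 with a floor 4 times higher, 6 with no filter, and 20 to 40 with an array left out (20, 22 and 21 without Akita replicates 1, 3 and 4, and 27 and 23 without control replicates 2 and 3). No label says that replicate numbers pair the samples. Correlations of same-numbered arrays were -0.35 to 0.34, with 1 of 8 correlating best with its own number, but 4 arrays per group cannot exclude a pairing. The replicate block gave 25 called miRNAs. The 0 called members became 2 without scaling, 2 with spike-ins, 3 with quantile and 2 with cyclic loess, and stayed 0 with each array left out.

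The 1 called arm difference became 0 under normexp, mean of log2 probes, brightest probe, deposited table, higher floor, no filter and bright probes only. At the higher floor both miR-30c passengers lay at the floor on all arrays, so no difference with them was checked there. The 2 called locus differences became 0 under normexp, brightest probe, deposited table, higher floor, bright probes only and the replicate block, where the smallest possible p is 0.125. Without 1 array they were 2 to 3. The mean of log2 probes kept the count but lost miR-30e-3p minus miR-30c-1-3p (0.22) and gained miR-30a-3p minus miR-30c-2-3p.

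Without scaling, the changes turned negative: -0.12 (miR-30a-5p), -0.24 (miR-30b-5p), -0.15 (miR-30c-5p), -0.10 (miR-30d-5p), -0.16 (miR-30e-5p), -0.10 (miR-30a-3p), -0.21 (miR-30c-2-3p), -0.10 (miR-30e-3p), family median -0.15, median of all -0.21. With spike-ins they were -0.089, -0.21, -0.12, -0.078, -0.14, -0.075, -0.18 and -0.070, in the same order, with medians of -0.12 and -0.18. Cyclic loess turned miR-30c-2-3p to -0.019 and the median of all to -0.0020. The arm difference of miR-30a turned to 0.093 with quantile, and ran from -0.036 to 0.0030 with an array left out, positive without Akita replicate 4. Normexp, with its offset of 50, turned miR-30c-1-3p to 0.11 and its arm difference to -0.016. It also turned the arm difference of miR-30c-2-3p to -0.063 and the chromosome 1 locus difference to -0.0018. MiR-30b-5p turned to -0.0038 in the deposited table, and ran from -0.00043 (without Akita replicate 1) to 0.066 with an array left out. The cause of these changes was not tested.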
